A study of Mus musculus with 3 samples.

Results

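The sites examined here are the peaks of thyroid hormone receptor alpha (TRα) and of the retinoid X receptor (RXR) in 1 mouse cell line, C17.2a, on chromosomes 1 to 19. They were 6902 TRα peaks and 6953 RXR peaks, 13855 of the 24389 peaks in the 3 lists of the series. A peak was matched when it shared at least 1 bp with a peak of the other list and unmatched otherwise, with RXR starts raised by 1 bp beforehand. C17.2 is a line of mouse neural progenitor cells, and C17.2a is a derivative that stably expresses TRα fused to a protein G tag. Cells of both libraries carried that tagged receptor, received no treatment and spent 24 h without serum before fixation. Tagged TRα and its DNA were recovered on IgG beads (chromatin affinity purification), and RXR by chromatin immunoprecipitation, with an antibody to all RXR forms (pan-RXR) followed by Protein A beads. Each receptor was represented by 1 library of 1 line, so no difference between the receptors has a replicate check, and whether the antibody step also recovered tagged TRα was not tested. A second line, C17.2b, with tagged TRβ, was set aside.

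Thyroid hormone receptors are transcription factors of the nuclear receptor family that stay on DNA with or without hormone. They bind most of their response elements as heterodimers with RXR, commonly at direct repeats of a hexamer half-site. RXR is also the partner of retinoic acid, vitamin D, liver X and peroxisome proliferator-activated receptors, so an antibody to RXR can recover sites of several dimers. Unliganded TRα recruits corepressors to its targets, and in neural progenitors thyroid hormone is known for its part in differentiation.

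The TRα library held 19786966 unique tags of 20259748 and the RXR library 16033622 of 16654006, a tag being 1 aligned read. Tags in a peak are given as RPM, reads per 1000000 unique tags of the library, a scale on which 1 tag is worth 0.0505 for TRα and 0.0624 for RXR. The smallest autosomal peak of either list held 10 tags, or 0.505 RPM for TRα and 0.624 for RXR. The peaks held 0.968% of the unique TRα tags over 4.10 Mb and 1.25% of the unique RXR tags over 5.16 Mb. Positions are on mm9. No genome or annotation of that build was used here, so no gene, exon or sequence is given for a site.

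Many peaks of each list shared bases with a peak of the other list. Both lists were called with no control library, and whether background common to both libraries gave part of the matches was not tested. Of the TRα peaks, 3245 (47.0%, 95% Wilson interval 45.8 to 48.2) met RXR, and of the RXR peaks 3234 (46.5%, 45.3 to 47.7) met TRα. Matched peaks held a larger part of the tags than of the peaks: 64.4% of all tags in TRα peaks and 64.3% of those in RXR peaks. The match was nearly always of 1 peak with 1 peak, in 3217 of 3247 overlapping pairs. Only 2 TRα peaks met 2 RXR peaks, whereas 13 RXR peaks met 2 TRα peaks. Those 13 RXR peaks had a median length of 1449 bp, and the 2 TRα summits under each lay between 364 and 1052 bp apart. One of them, chr19:23208986-23211325, was 2340 bp long with 120 RXR tags and covered 2 TRα summits 1052 bp apart.

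The match was clear-cut at its limit of 1 bp. Only 2 of 3245 matched TRα peaks shared fewer than 100 bp with their best RXR partner, and a median pair shared 597 bp. The pair with the fewest shared bases had 13 in common, TRα at chr13:52059764-52060870 with 34 tags and RXR at chr13:52059161-52059776 with 21 tags. Its summits lay 827 bp apart. Next came a pair on chromosome 16 with 18 shared bp, TRα at chr16:33178687-33179188 and RXR at chr16:33178215-33178704, with 19 and 16 tags. The third pair shared 153 bp on chromosome 10. On the other side of the limit, 1 unmatched TRα peak lay within 100 bp of an RXR peak, 15 of 3657 within 500 bp and 29 (0.793%) within 1 kb. With chromosomes 8 and 18 set aside, the smallest gap from an unmatched TRα peak was 142 bp, between TRα at chr4:53231755-53232886 and RXR at chr4:53230696-53231612, with 43 and 36 tags. The next gaps were 144 bp, at TRα chr13:56684109-56684667, and 211 bp, at TRα chr19:61300182-61300674. The summits of these 3 pairs lay 552 bp or more apart. Unmatched RXR peaks lay within 1 kb of a TRα peak in 24 of 3719 cases (0.645%). The nearest peak of the other list was a median of 93418 bp away for unmatched TRα peaks and 101332 bp for unmatched RXR peaks. Unmatched sites were therefore seldom neighbours of a site of the other receptor that missed the overlap.

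Matched sites were stronger. A median matched TRα peak held 30 tags (1.52 RPM, quartiles 1.11 and 2.17), and a median unmatched one 16 tags (0.809 RPM, quartiles 0.657 and 1.06). In the RXR list the medians were 31 tags (1.93 RPM, 1.43 and 2.74) and 17 tags (1.06 RPM, 0.811 and 1.43). The ratio of medians was 1.88 for TRα and 1.82 for RXR. Matched medians were higher on 19 of 19 chromosomes in both lists, by 0.556 to 0.910 RPM for TRα and by 0.624 to 1.19 for RXR. The distributions still overlapped, since 10% of matched TRα peaks held 17 tags or fewer and 10% of unmatched ones 28 or more.

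The share of matched peaks rose over most of the range of RPM. Among TRα peaks it went from 10.4% under 0.75 RPM (166 of 1603) through 52.9% at 1 to 1.5 (1022 of 1933) to 94.3% at 3 to 5 (281 of 298). At 5 and over it was 91.0% (81 of 89, interval 83.3 to 95.4), which overlaps the interval of the band before it. Against 47.0% of all TRα peaks, the bands from 1 RPM upwards lay above and the lower ones below. The RXR share went from 6.80% (60 of 883) through 37.8% (744 of 1966) to 91.8% (469 of 511) and, at 5 and over, 96.2% (150 of 156), against 46.5% of all RXR peaks. At equal RPM the TRα share was higher in the 6 lower bands, with intervals that did not overlap in the 5 lowest, and 1.5 to 2 RPM gave 78.5% for TRα against 61.2% for RXR. An equal band holds different tag counts, 30 to 39 for TRα and 25 to 32 for RXR at 1.5 to 2 RPM. Ranked by RPM within each list the shares came close, with 471 TRα and 470 RXR peaks matched among the first 500 of each list, 923 and 916 among the first 1000, and 1712 and 1692 among the first 2000.

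**Figure D1:**
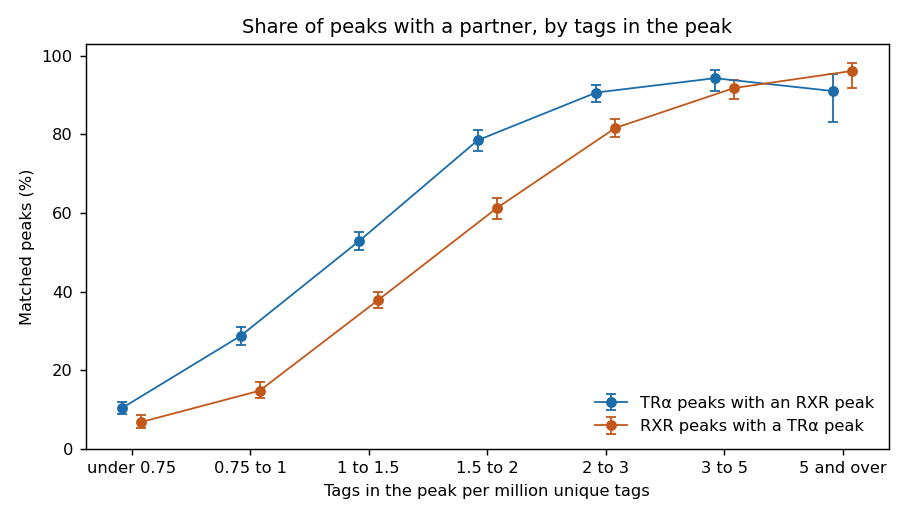
Share of TRα peaks with an RXR peak (blue) and of RXR peaks with a TRα peak (orange), in percent, in 7 bands of RPM. Points are shares and bars 95% Wilson intervals; the TRα share goes from 10.4% in the lowest band to 94.3% at 3 to 5 RPM, and the RXR share from 6.80% to 96.2% at 5 and over.

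Few unmatched TRα peaks held as many RPM as a typical matched RXR peak: 100 of 3657 reached 1.93 RPM, the median of matched RXR peaks. Of the 3719 unmatched RXR peaks, 722 reached 1.52 RPM, the median of matched TRα peaks. The lists differ in scale, so these counts cannot be compared directly. At matched pairs the median log2 ratio of TRα to RXR was -0.36 in RPM and -0.04 per kb of peak. Sites of the partner that missed the calling limit, a p-value of 1e-04, cannot be seen in these lists, nor can any under 10 tags. The lowest deposited score, -10 times log10 of the p-value, was 40.0 for TRα and 40.01 for RXR. Unmatched peaks lay near that limit, with median scores of 45.68 for TRα and 45.63 for RXR. Matched peaks had median scores of 79.38 and 69.515.

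Length pointed in opposite directions with and without regard to tags. Over the whole of each list, matched peaks were longer, with a median of 640 bp (interval of the median 633 to 648) against 494 bp (489 to 500) for TRα and 807 bp (799 to 815) against 615 bp (607 to 622) for RXR. The difference held on 19 of 19 chromosomes in each list, from 102.5 to 182 bp for TRα and from 145 to 236.5 bp for RXR. At like numbers of tags it was turned round: in all 7 bands of both lists the matched peaks were the shorter ones. TRα peaks with 2 to 3 RPM had a median of 755 bp when matched and 952 bp when not. For RXR peaks of that band the medians were 885.5 and 1034 bp. The comparison was also made at each exact tag count with at least 10 peaks of both kinds. Matched TRα peaks were shorter at 30 of 30 tag counts, from 10 to 39 tags, with a median difference of -52.25 bp. Matched RXR peaks were shorter at 31 of 31 tag counts, from 11 to 42 tags, with a median difference of -67 bp.

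Within a band of RPM the shorter peaks met a partner more often than the longer ones, and in each band the shorter peaks tended to have the higher folds. The Spearman correlation of length and fold across the peaks of a band, a description only, ran from -0.72 to -0.19 for TRα and from -0.72 to -0.17 for RXR. Among TRα peaks of 1 to 1.5 RPM, the shorter 50% were matched in 60.7% of cases (57.6 to 63.7) and the longer ones in 45.0% (41.9 to 48.2). The RXR peaks of 1.5 to 2 RPM gave 69.3% (65.6 to 72.9) for the shorter and 53.1% (49.1 to 57.0) for the longer ones. Of TRα peaks with at least 2 RPM and a length under 750 bp, 391 of 403 were matched, or 97.0% (94.9 to 98.3). With the same floor of 2 RPM and a length of 1000 bp or more it was 189 of 238, or 79.4% (73.8 to 84.1). Above that floor the tags of these length classes were not held alike. The RXR list gave 195 of 211 (92.4%) and 581 of 733 (79.3%).

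The fold enrichment, the authors' own value of each peak, was compared between matched and unmatched peaks only inside a list. Folds of both lists are set side by side, ranked together or correlated only at pairs, further below. Matched TRα peaks had a median fold of 9.14 against 6.85 for unmatched ones, and matched RXR peaks 8.66 against 6.77, with the matched median higher on 19 of 19 chromosomes for both. This held in all 7 bands of both lists, at 30 of 30 exact tag counts for TRα and at 30 of 31 for RXR. The difference widened with tags up to 5 RPM. Under 0.75 RPM the TRα medians were 7.80 matched and 6.87 unmatched, and at 3 to 5 RPM they were 12.68 and 4.33, the latter over 17 peaks. TRα peaks with a fold of at least 10 were matched in 1274 of 1421 cases (89.7%) and those under 5 in 77 of 344 (22.4%). In the RXR list these shares were 1003 of 1188 (84.4%) and 95 of 373 (25.5%).

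**Figure D2:**
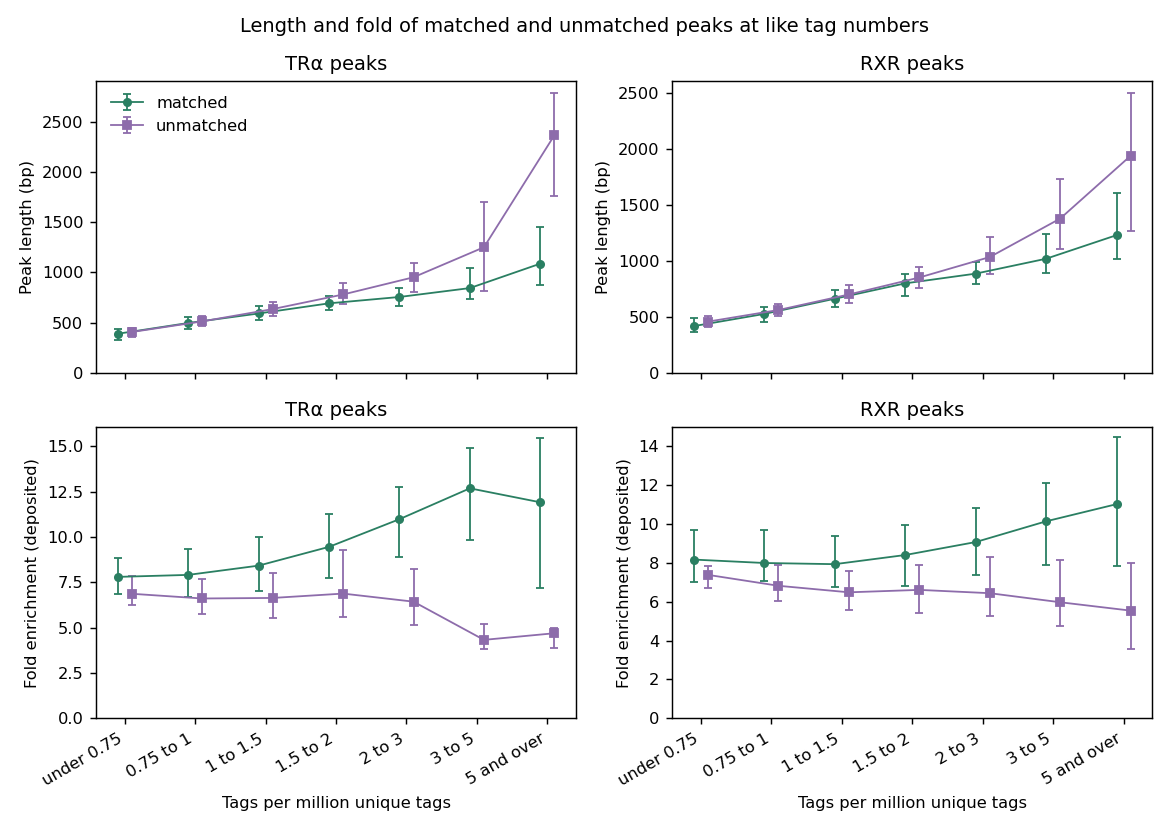
Peak length in bp (upper row) and deposited fold enrichment (lower row) against bands of RPM, for TRα peaks (left) and RXR peaks (right). Points are medians of matched (green circles) and unmatched peaks (purple squares) and bars the quartiles; in every band matched peaks are shorter and have the higher fold, with TRα medians of 755 against 952 bp at 2 to 3 RPM.

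Summits of unmatched peaks lay further off centre in relation to the length of the peak. The distance of the summit from the centre was a median of 7.46% of the length in matched and 10.3% in unmatched TRα peaks, and 7.78% and 10.3% in RXR peaks, with the matched median lower on 19 of 19 chromosomes in each list. In bp the medians came close, at 45.5 and 49 bp for TRα and 59.75 and 61.5 bp for RXR. The intervals of the medians overlapped for both, from 43.5 to 48 and from 47 to 51 bp for TRα and from 57 to 62.5 and from 59.5 to 64 bp for RXR. At exact tag counts the matched percentage was lower in 24 of 30 cases for TRα and 23 of 31 for RXR. Within bands the matched percentage was lower in 7 of 7 TRα bands and 6 of 7 RXR bands. The exception was RXR at 5 RPM and over, with 7.83% matched and 7.28% unmatched. Intervals of these percentages did not overlap in the TRα bands from 1 to 3 RPM and in the RXR bands from 1.5 to 3 RPM. In the other bands of both lists they overlapped. In bp the difference varied between bands. TRα peaks of 2 to 3 RPM had summits 48 bp (43 to 53) from the centre when matched (n = 601). The unmatched peaks of that band (n = 62), which were longer, had 133 bp (101 to 203.5). At 0.75 to 1 RPM both TRα medians were 43 bp.

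Matched sites lay in denser surroundings over each whole list. From a matched TRα peak the gap to the next TRα peak was a median of 135378 bp (127954 to 145804), and from an unmatched one 210861 bp (197688 to 222979). In the RXR list the medians were 138998 bp (129730 to 150065) and 209544 bp (199057 to 224697). The matched gap was shorter on 18 of 19 chromosomes for TRα and on 19 of 19 for RXR. TRα peaks with the next peak 1 to 10 kb away were matched in 61.2% of cases (56.4 to 65.7), against 36.9% (32.9 to 41.0) where it was 1 Mb or more away. Median tags fell from 28 to 16 over the same range of gaps. For RXR peaks the shares were 62.3% and 36.2%, with medians of 28 and 17 tags. Within bands of RPM the matched gap was the shorter one in 2 of 7 TRα bands and in 5 of 7 RXR bands. In the RXR band under 0.75 RPM the intervals did not overlap, with 138632 bp (76819 to 229734) for matched and 314998 bp (275595 to 349994) for unmatched peaks. In the other bands of both lists they overlapped. At exact tag counts the matched gap was longer in 17 of 30 cases for TRα and in 14 of 31 for RXR.

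**Figure D3:**
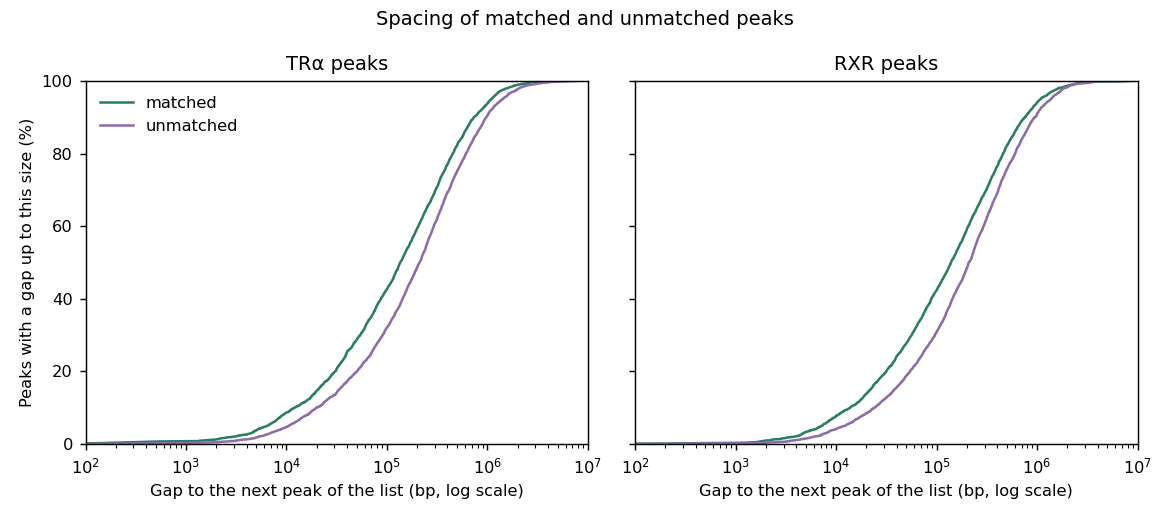
Cumulative share of peaks, in percent, by the gap to the next peak of the same list in bp on a log axis, for TRα (left) and RXR (right). Matched peaks (green) lie to the left of unmatched peaks (purple), with medians of 135378 and 210861 bp for TRα and 138998 and 209544 bp for RXR, before any regard to tags.

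Over each whole list a matched site was more often followed by another matched site, and within most bands of RPM the intervals overlapped. After a matched TRα peak the next TRα peak was matched in 1644 of 3236 cases (50.8%, 49.1 to 52.5), and after an unmatched one in 1588 of 3647 (43.5%, 41.9 to 45.2). Among TRα peaks of 1 to 2 RPM the shares were 50.6% (48.3 to 53.0) and 48.4% (45.5 to 51.4), with overlapping intervals. Under 1 RPM they were 47.9% (43.8 to 51.9) and 41.2% (39.3 to 43.2), which do not overlap. At 2 RPM and over the TRα shares were 52.9% (49.7 to 56.0) and 47.1% (37.0 to 57.5). RXR peaks gave 50.1% and 43.4% in all. Within all 3 bands the RXR intervals overlapped, with 43.7% (37.3 to 50.3) and 37.5% (35.3 to 39.8) under 1 RPM and 50.1% and 48.2% at 1 to 2 RPM. At 2 RPM and over the order was the other way, with 51.1% after matched and 52.0% after unmatched RXR peaks. Along the chromosomes the TRα share ran from 39.4% on chromosome 10 (183 of 464) to 53.0% on chromosome 11 (244 of 460). The RXR share ran from 40.2% on chromosome 3 (187 of 465) to 54.2% on chromosome 14 (128 of 236). The shares of the lists moved together over the 19 chromosomes, with a Spearman correlation of 0.775, a description only, since each pair counts in both lists.

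Where TRα and RXR met, their summits nearly coincided. The 3245 matched TRα peaks and their best RXR partners had summits a median of 25 bp apart, with 76.5% within 50 bp, 91.3% within 100 bp and 100 pairs beyond 250 bp. There was no common direction: the RXR summit had the higher coordinate in 1604 pairs, the lower in 1580 and the same in 61. The median distance on single chromosomes ran from 20 to 30 bp. Pairs whose TRα peak had a fold of 12 or more had summits a median of 15 bp apart (n = 645), and those under a fold of 6 a median of 69.5 bp (n = 264). The 100 pairs with summits over 250 bp apart were longer, with a median TRα length of 883.5 against 637 bp, and had a lower median TRα fold, 6.34 against 9.22.

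**Figure D4:**
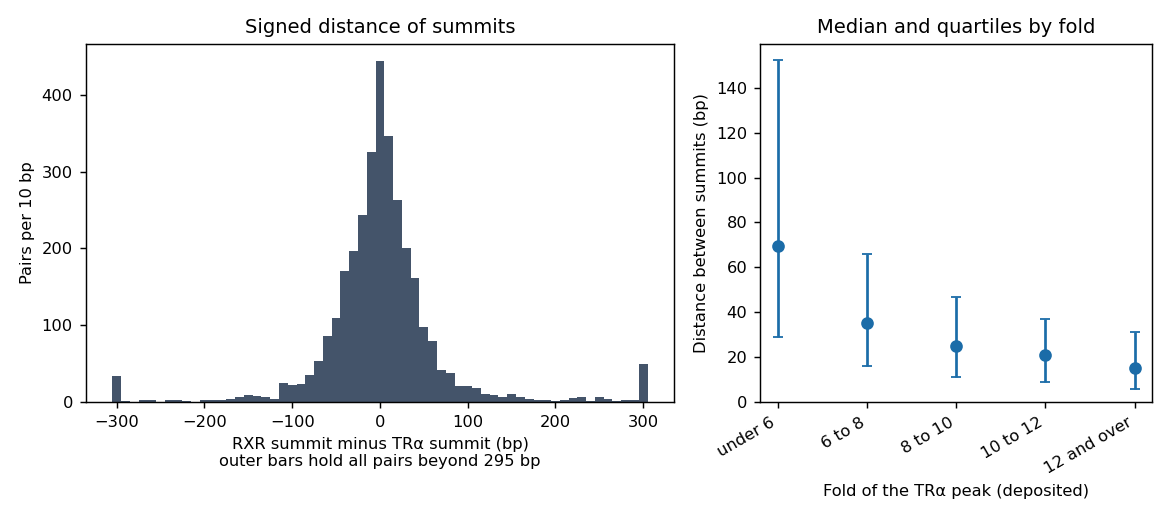
Left, signed distance from the TRα to the RXR summit in bp for 3245 matched pairs, in bars of 10 bp, with all pairs further apart than the axis in the outer bars. Right, median distance in bp with quartiles against the deposited fold of the TRα peak, which goes from 69.5 bp under a fold of 6 to 15 bp at 12 and over.

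The TRα peak of a pair was usually the shorter and often lay whole inside its partner. The RXR peak was longer in 2582 of 3245 pairs (79.6%), and the median ratio of RXR to TRα length was 1.25. In 1761 pairs (54.3%) the TRα peak lay entirely inside the RXR peak, and in 228 (7.03%) the reverse was true. In 2996 pairs (92.3%) each peak shared at least 50% of its length. The peak caller had estimated a distance between the strands' tag clusters (d) of 139 bp and a band width of 500 bp for TRα, and 174 and 300 bp for RXR. Their part in the lengths was not tested.

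RXR peaks held more RPM than the TRα peaks they met, and this went with their length. RXR was higher in 2554 of 3245 pairs (78.7%). The median log2 ratio of TRα to RXR RPM was -0.36 (quartiles -0.67 and -0.06), and it was below 0 on 19 of 19 chromosomes. RXR exceeded TRα by more than 2-fold in 300 pairs, 9.24% of all pairs, and TRα exceeded RXR in 6, or 0.185%. Per kb of peak the medians were almost level, at 2.36 RPM per kb for TRα and 2.41 for RXR. The median log2 ratio per kb was then -0.04 (quartiles -0.28 and 0.19). Past 2-fold there were 15 pairs with RXR higher (0.462%) and 19 with TRα higher (0.586%). Pairs enter only where both libraries had a called peak, which leaves out sites of strongly unequal signal.

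Paired peaks with many tags in one list tended to hold many tags in the other. Over the 3217 one-to-one pairs the Spearman correlation of RPM was 0.761, and per kb it was 0.658. Lengths correlated at 0.510 and folds at 0.615. These are descriptions across pairs that share the line and the genome position, and longer peaks hold more tags in both lists. Among pairs with a TRα peak of 500 bp or more and under 750 bp (n = 1808), a narrow range of length, the correlation of RPM was 0.644. It was 0.574 under 500 bp (n = 609) and 0.745 from 750 bp upwards (n = 800). Of the 100 TRα peaks with the most tags, 92 were matched and 70 had a partner among the 100 RXR peaks with the most tags. Among the best 1000 of each list, 660 TRα peaks (66.0%) and 655 RXR peaks (65.5%) had such a partner.

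**Figure D5:**
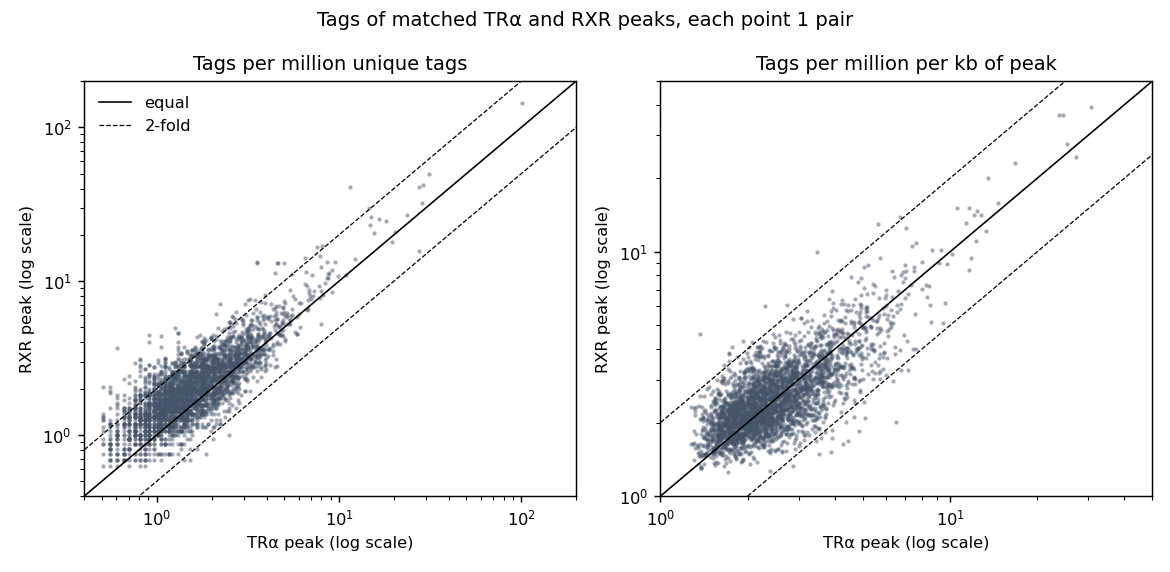
Tags of the RXR peak against tags of the TRα peak in 3245 matched pairs, in RPM (left) and in RPM per kb of peak (right), on log axes. The solid line marks equal values and the broken lines a 2-fold difference; most points lie above the line of equal values on the left (RXR higher in 2554 pairs), and around it on the right (RXR higher in 1775 pairs).

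The 5 pairs with the lowest sums of ranks by RPM had folds between 3.25 and 8.12, under the medians of matched peaks (9.14 for TRα and 8.66 for RXR). This was not so of peaks with many tags at large: the matched peaks of 5 RPM and over had median folds of 11.91 for TRα (n = 81) and 11 for RXR (n = 150). The pair with the lowest sum of ranks ranked first in each list, TRα at chr17:39979842-39985877 with 100.8 RPM and RXR at chr17:39979798-39985976 with 143. Its peaks were 6036 and 6179 bp long, their folds 3.25 and 3.29, and their summits 138 bp apart. A pair at chr9:3025197-3027912 (TRα) and chr9:3025156-3027948 (RXR) held 28.8 and 42.2 RPM with folds of 5.18 and 4.53, and its summits lay 1131 bp apart. On chromosome 2, TRα at chr2:98506294-98507553 held 31.0 RPM and RXR at chr2:98506258-98507643 held 50.1. Its neighbour, TRα at chr2:98502370-98503256 and RXR at chr2:98502243-98503291, held 27.3 and 41.2, and the folds of these 4 peaks lay between 4.45 and 5.70. The fifth pair had the highest folds of the 5: TRα at chr15:74915650-74917597 and RXR at chr15:74915587-74917617 had folds of 7.77 and 8.12 with 28.5 and 32.3 RPM, and their summits fell on the same base. No control library entered the calling of either list. Whether the regions of these 5 pairs collect tags without either receptor was not tested, so their ranks by RPM are ranks of called peaks only.

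The 5 pairs of highest fold in both lists had narrow TRα peaks and nearly coinciding summits. They were picked by sum of fold ranks after the data had been seen. TRα at chr3:144535021-144535499 had 56 tags and a fold of 23.5, RXR at chr3:144534973-144535627 had 41 tags and a fold of 19.16, and the summits lay 23 bp apart. At chr6:3151273-3151652 TRα had 56 tags and a fold of 22.8, and at chr6:3151139-3151899 RXR had 49 tags and a fold of 22.35. The chromosome 6 summits were 1 bp apart. Another pair with summits 1 bp apart was TRα at chr5:104792298-104792570 with 32 tags and RXR at chr5:104792265-104792605 with 21 tags. The other 2 of the 5 lay at chr12:3109869-3110301 (74 TRα and 118 RXR tags) and chr3:4743508-4743909 (54 and 46 tags), with summits 5 and 1 bp apart. TRα peaks of these 5 pairs were 273 to 479 bp long and RXR peaks 341 to 761 bp, against medians of 640 and 807 bp for matched peaks. A choice by fold favours both traits, since higher folds went with shorter peaks within bands and with closer summits across pairs. The chromosome 6 and chromosome 12 pairs lay below 4 Mb, as did 38 of the 3245 matched TRα peaks.

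Among pairs of unequal signal, most of those named here also differed in length. The highest ratio of TRα to RXR among pairs with at least 50 tags in both was on chromosome 2, where the longest autosomal TRα peak, chr2:77857864-77865260, spanned 7397 bp. It held 27.3 RPM against 15.6 for RXR at chr2:77858160-77861488, a log2 ratio of 0.81 that became -0.34 per kb. TRα at chr1:87520370-87523008, with 157 tags, and RXR at chr1:87520796-87523024, with 84, had log2 ratios of 0.60 and 0.36 per kb. At the other end stood TRα at chr11:3000878-3002539 with 11.4 and RXR at chr11:2999965-3004897 with 40.9 RPM, a log2 ratio of -1.84 and -0.27 per kb. The pair at chr10:80878095-80878968 (TRα) and chr10:80876323-80878895 (RXR) went from -1.34 to 0.22. TRα at chr3:132536770-132537562 and RXR at chr3:132535932-132537584 went from -1.23 to -0.17. A ratio that stood per kb as well was that of TRα at chr19:58782958-58783656 and RXR at chr19:58782929-58783696. There TRα had 89 tags and RXR 50, with log2 ratios of 0.53 and 0.66 per kb and folds of 17.84 and 12.

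The 10 unmatched peaks named for the most tags were all over 1000 bp long. For TRα they were led by chr2:27355131-27358323, ranked second among all TRα peaks with 641 tags over 3193 bp and a fold of 4.79, and 151264 bp from the nearest RXR peak. Next was chr2:77785236-77790004 with 419 tags over 4769 bp and a fold of 2.28. Then came chr4:146892710-146895215 (152 tags, fold 4.02), chr3:142218272-142220184 (134 tags, fold 8.04) and chr9:115060492-115061810 (118 tags, fold 5.54). The last of these lay 328 bp from an RXR peak. Unmatched RXR peaks reached fewer tags, with 166 at chr3:25454069-25456640 (fold 3.58), 144 at chr10:66326208-66329045 (fold 8.16) and 125 at chr16:3246094-3248389 (fold 3.57). The remaining 2 were chr3:25416132-25417717 (123 tags, fold 3.02) and chr17:33915891-33916993 (86 tags, fold 9.66).

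Strong and narrow peaks without a partner were few. With at least 2 RPM and under 750 bp there were 12 unmatched TRα peaks of 403 (2.98%) and 16 unmatched RXR peaks of 211 (7.58%). Those TRα peaks held 40 to 91 tags and had a median fold of 8.38, whereas the matched peaks of that class had 12.89. The RXR peaks without a partner held 33 to 45 tags, with a median fold of 11.06 against 11.41 for the matched ones. Named after their values were seen, the TRα peaks of highest fold were chr19:56885026-56885664 (43 tags, fold 11.36) and chr19:55729268-55729882 (41 tags, fold 10.1), followed by chr17:10648001-10648728 (40 tags, fold 9.95). Among RXR peaks they were chr13:23488561-23489127 (33 tags, fold 15.85) and chr9:23274070-23274746 (36 tags, fold 12.87). A further RXR peak, chr7:85058320-85059029 with 45 tags and a fold of 12.82, lay 1072150 bp from the nearest TRα peak.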

How the data were processed

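The build mm9 and the tools CASAVA 1.7 and Bowtie 0.12.7 are named in the submitters' processing notes. Per the file headers, MACS (version not given in the sources used here) ran on single libraries with no control, at a p-value limit of 1e-04 and a tag size of 36 bp. The deposited count of tags per peak is a whole number, not normalized. The deposited score is -10 times log10 of the p-value. The deposited fold is a ratio whose background the headers do not define.

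Computed here, with Python 3.11.15, numpy 2.4.6, pandas 2.3.3, scipy 1.17.1 and matplotlib 3.10.9, were matches of at least 1 bp on chromosomes 1 to 19, RPM (reads per 1000000 unique tags), and medians. RXR starts were raised by 1, after which deposited lengths equalled end minus start plus 1 for all 6953 peaks. The best partner shares the most bp. Intervals are 95% Wilson for shares and exact binomial (order statistic) for medians; both treat peaks as independent and cover counting error only. Matching was tested on simulated data. Members, measures and alternatives were chosen with earlier results of these data known. Peaks were named by rules on ranks of tags, ratio, shared bp, gap and length, those on chromosomes 8 and 18 being counted only, and by fold where stated. Start sites and the direct-repeat motif were not run, for want of an mm9 genome.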

Additional observations from a re-analysis of the deposited data

How the results depend on the processing

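For 12 results, 73 alternative values were computed under 11 settings. Of these values 0 reversed direction, 58 were counted as the same and 15 as moved. Tag differences in RPM per kb and summit offsets in percent of length counted as the same when they kept the sign of the first value. All other values, among them the log2 ratio per kb and the nearest gap, counted as the same only inside the interval of the first value. None of the settings held tags alike. At like tags the length difference did reverse, with matched peaks shorter in all 7 bands of both lists. The matched gap to the next peak was then longer in 5 of 7 TRα bands and in 2 of 7 RXR bands. With a reciprocal overlap of 50% the share of matched TRα peaks was 43.4% and of RXR peaks 43.1%, the RXR length difference 171 bp and the log2 ratio of tags -0.33. With scores of at least 50 in both lists (3910 TRα and 3765 RXR peaks) the shares were 58.8% and 60.9%, the length differences 97 bp for TRα and 141.5 bp for RXR, the RXR tag difference 0.842 RPM, the summit distance 23 bp and the log2 ratio -0.34. The gap to the nearest peak on either side, shorter by construction, differed by -39060 bp for TRα and -43281 bp for RXR. Per 1000000 total tags the RXR tag difference was 0.841. The median log2 ratio in RPM per kb was -0.0425. For the score limit the cause was not tested. Windows of 500 bp, RXR starts as deposited, one-to-one pairs and removal of 8 dense 1 Mb bins left every result computed under them inside its interval. Adding chromosomes X and Y, chosen after seeing the data, did so too. The calling limit, a p-value of 1e-04 with a lowest count of 10 tags, restricts what can be matched. No paired analysis was possible because TRα and RXR had 1 library apiece.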

Other observations

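On the sex chromosomes, which stand outside the comparisons above, 127 of 213 TRα peaks on X met RXR (59.6%, Wilson interval 52.9 to 66.0) and 45 of 59 on Y (76.3%, 64.0 to 85.3). RXR peaks met TRα in 123 of 192 cases on X (64.1%, 57.1 to 70.5) and in 41 of 49 on Y (83.7%, 71.0 to 91.5). Both chromosomes lay above the shares of all autosomal peaks, 47.0% and 46.5%, with no regard to tags. Peaks on Y held a median of 2.63 RPM for TRα and 2.49 for RXR. Autosomal peaks of 2 to 3 RPM were matched in 90.6% (88.2 to 92.6) of TRα cases and 81.6% (79.2 to 83.8) of RXR cases. The TRα share on Y lay below the first of these, and the RXR interval on Y overlapped the second. Near the starts of the autosomes, 72 TRα peaks started below 4 Mb, the lowest at 2999926, and 38 of them (52.8%, 41.4 to 63.9) were matched, which overlaps the 47.0% (45.8 to 48.1) of the other TRα peaks.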
